A study of Caenorhabditis elegans with 16 samples.

Results

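The 9 genes described here were catp-2, nhx-6, C02E7.10, C25F9.11, F33H12.7, T26H5.9, F44G3.10, C07G1.7 and Y41C4A.32. They were picked from 29351 listed genes because their transcripts were far more abundant in rnp-6(G281D) worms than in wild type on the OP50 diet, or fell strongly in the mutant on the BW25113 diet. The comparison of genotypes on OP50 and the comparison of diets in rnp-6(G281D) therefore chose the genes, and the values of those comparisons are given as a description with no test. RNA-seq was done on whole Caenorhabditis elegans, in 16 samples that fall into 4 groups of 4. The wild type was N2, and the mutant carried the G281D substitution in RNP-6, the worm counterpart of the human splicing factor PUF60, which the study describes as a partial loss of function. Both strains were kept on E. coli OP50 at 20 °C, and synchronized animals of each were grown for 3 days on either E. coli OP50, a B-type strain, or E. coli BW25113, a K12-type strain. All animals were collected on day 1 of adulthood. The labels do not say what distinguishes the 4 samples of a group, so the p-values measure only the spread between these samples, which may be technical.

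Of the 9 genes, 4 have names or homologies that place them in known families. catp-2 belongs to the P-type ATPases, pumps that use ATP to move cations across membranes, and nhx-6 to the Na+/H+ exchangers, which trade sodium for protons and take part in the control of pH and of fluid transport across epithelia. Y41C4A.32 was described by the study as an ortholog of the human COPB2, a subunit of the COPI coat that carries cargo from the Golgi back to the endoplasmic reticulum, and its fluorescent reporter was the study's readout for its screens. F44G3.10 is listed in the current annotation as clc-11, a name used for claudin-like membrane proteins. The other 5 genes carry only sequence names, and no role is given for them here.

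All 9 genes are protein coding in the Ensembl 115 annotation of WBcel235. Chromosome V holds 5 of them, chromosome II holds 2, and chromosomes III and IV hold 1 each. catp-2 (WBGene00015338) lies at chrV:4934706-4939085 on the plus strand, with the noncoding RNA C02E7.16 on the opposite strand within it (listed at 0 in every group), and C02E7.10 (WBGene00015342) at chrV:4932393-4933045 on the minus strand. These are the only 2 of the 9 that neighbour each other: they point away from each other, and their annotated starts are 1661 bases apart. nhx-6 (WBGene00003734) lies at chrII:1670829-1674401 on the plus strand, and F33H12.7 (WBGene00045457) at chrII:2586078-2586911 on the minus strand. On chromosome V, T26H5.9 (WBGene00044206) lies at chrV:15444916-15445420 on the plus strand. F44G3.10 (WBGene00009710) lies at chrV:16138760-16139629 and C25F9.11 (WBGene00045411) at chrV:19432447-19433072, both on the minus strand. Y41C4A.32 (WBGene00270321) lies at chrIII:11721706-11723607 on the plus strand, and a noncoding RNA on the opposite strand, Y41C4A.26, overlaps it. C07G1.7 (WBGene00015573) lies at chrIV:8210906-8211847 on the minus strand, where it overlaps svh-1 on the plus strand. The libraries were stranded, but whether strand was used in the quantification is not given in the sources used here, so reads of overlapping genes may be shared.

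The 16 samples were alike in size: totals of normalized counts ran from 36330390 to 38381707, and samples of one group correlated with r of at least 0.9885 across 15799 genes. Those 15799 genes had a mean normalized count of at least 10 over the 16 samples and were the ones tested. All 9 genes passed this filter, but for C25F9.11, F44G3.10 and C07G1.7 the mean of the 12 samples outside rnp-6(G281D) OP50 was below 10, so these 3 passed only through the group where they were high. One sample needs to be named before the results. Wild-type BW25113 replicate 3 was the highest of its group for 7 of the 9 genes, at between 3.02 and 14.4 times the mean of the other 3 samples. Across all 15799 genes it did not stand apart: 0.709% of genes were far above the rest of its group there, against 0.367% to 1.06% in the 16 samples. Results that rest on it are given with and without it. The transcript of rnp-6 itself was higher in the mutant, by 0.35 on the log2 scale on OP50 and 0.44 on BW25113, and the substitution was not read here. Whole animals were measured, so fewer cells of a type and less RNA per cell cannot be told apart.

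The cation pump gene catp-2 was nearly silent in wild type on OP50, with normalized counts of 0, 4.01, 1.04 and 0.819 in replicates 1 to 4. The mutant on OP50 reached 706, 679.9, 579 and 357. Wild type on BW25113 had 2.21, 9.69, 69.4 and 2.56, and rnp-6(G281D) on BW25113 had 102, 79.4, 109 and 134. The mutant on BW25113 thus lay between the other groups: below every mutant sample on OP50, and above every wild-type sample, although replicate 3 of wild type on BW25113 came close to it.

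The exchanger gene nhx-6 had its groups in the same order. Wild type fed OP50 had normalized counts of 0, 8.62, 3.71 and 3.99, and the mutant fed OP50 had 989, 1074, 1037 and 659. On BW25113, wild type had 24.98, 24.1, 208 and 17.2, and rnp-6(G281D) had 392, 136, 244 and 324. Every wild-type sample on BW25113 was above every wild-type sample on OP50. In the mutant the diets were in the opposite order, with every sample on BW25113 below every sample on OP50. The value of 0 in wild-type OP50 replicate 1 is a listed value rather than an absence, since the FPKM table gave nhx-6 0.00514 FPKM in the same sample.

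C02E7.10, the neighbour of catp-2, was hardly seen in wild type on OP50. It was listed at 0 in wild-type OP50 replicates 1, 2 and 4 and at 2.08 in replicate 3. Its normalized counts in the mutant fed OP50 were 258, 280.1, 258 and 132. On BW25113, wild type had 3.27, 5.79, 22.0 and 0, and rnp-6(G281D) had 39.0, 22.3, 29.2 and 34.4. The 4 groups stood in the same order as for catp-2 and nhx-6, and the mutant samples on BW25113 were all above the wild-type samples, with 22.3 against 22.0 as the closest pair.

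Y41C4A.32, the COPB2-related gene, had the highest normalized counts of the 9, and also the highest level per transcript length given further on. Wild type on OP50 had 92.1, 85.8, 76.4 and 67.04 normalized counts, and rnp-6(G281D) on OP50 had 2611, 2764, 2636 and 5005. On BW25113, wild type had 60.1, 62.5, 180.3 and 56.7, and rnp-6(G281D) had 338, 139, 194 and 246. It was the only one of the 9 with more than 50 normalized counts in every wild-type sample. The mutant on BW25113 was higher than 3 of the 4 wild-type samples on that diet, and replicate 2 of the mutant (139) lay below replicate 3 of wild type (180.3).

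The claudin-like gene F44G3.10 was low everywhere except in the mutant on OP50. Its normalized counts there were 60.4, 82.1, 86.4 and 96.0. Wild type had 1.74, 5.05, 9.33 and 4.16 on OP50 and 3.27, 0.963, 6.15 and 0 on BW25113, and rnp-6(G281D) on BW25113 had 7.58, 1.02, 3.77 and 8.35. The 3 other groups overlapped one another.

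T26H5.9 and F33H12.7, both without a named function, showed the same shape. T26H5.9 had 346, 470.3, 370.4 and 339 normalized counts in the mutant fed OP50, against 9.65, 5.07, 16.6 and 6.68 in wild type fed OP50. On the BW25113 diet it had 11.97, 8.69, 7.05 and 9.33 in wild type and 9.72, 26.3, 30.1 and 20.8 in the mutant. Only replicate 1 of the mutant on BW25113 fell within the range of wild type on that diet.

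F33H12.7 had 401, 470.2, 600.2 and 613 normalized counts in the mutant fed OP50, and 8.69, 5.05, 26.9 and 30.8 in wild type fed OP50. On the BW25113 diet it had 6.55, 2.89, 56.2 and 11.01 in wild type and 20.6, 8.16, 31.1 and 23.0 in the mutant. Wild-type BW25113 replicate 3 was above all 4 mutant samples on that diet. In C25F9.11 the mutant on OP50 had 79.8, 142, 126 and 114, while wild type had 0.869, 1.01, 5.18 and 0.832 on OP50 and 0, 3.85, 7.90 and 0.847 on BW25113. The mutant on BW25113 had 5.41, 7.14, 11.3 and 9.39 of C25F9.11, overlapping wild type.

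C07G1.7 departed from the other 8 on BW25113. Its normalized counts were 1.73, 6.06, 6.21 and 4.98 in wild type fed OP50, against 49.2, 34.3, 22.0 and 72.9 in the mutant fed OP50. On BW25113 the genotypes changed places: wild type had 14.2, 21.2, 15.8 and 22.0, and rnp-6(G281D) had 4.33, 6.14, 7.54 and 5.22. The groups did not overlap on either diet, with the mutant above wild type on OP50 and below it on BW25113.

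**Figure D1:**
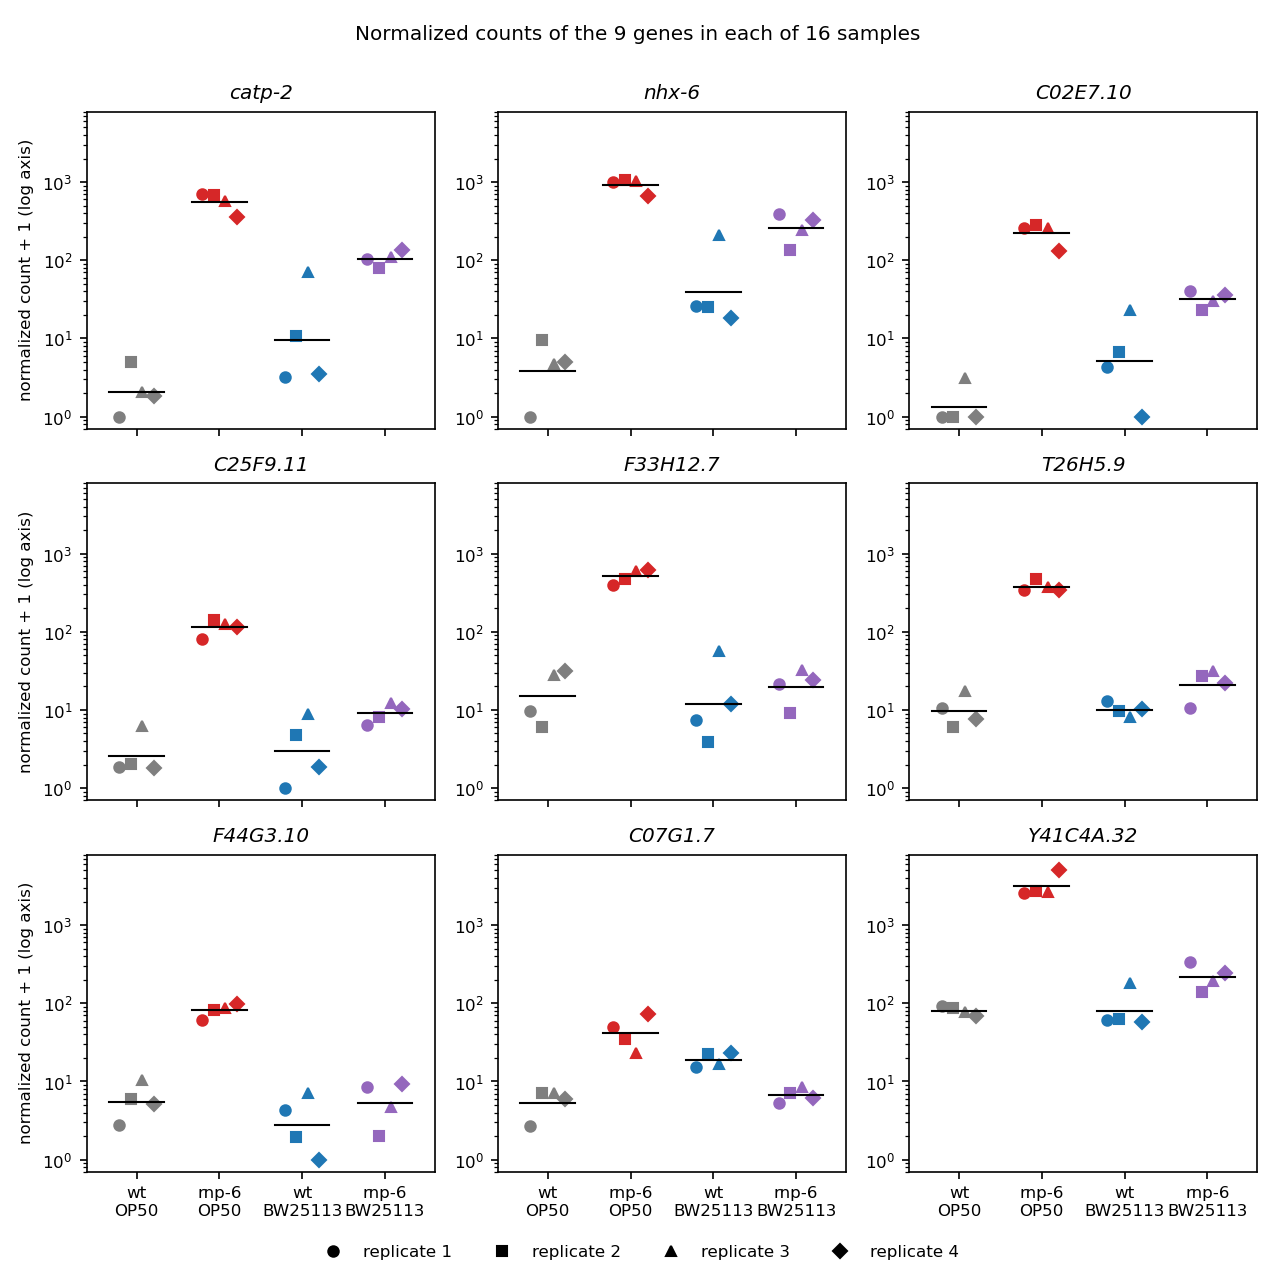
Normalized count plus 1 (log axis) of each of the 9 genes in each of the 16 samples, by group, with a marker shape for each replicate number and a line at the mean of the log values. rnp-6(G281D) on OP50 is the highest group in all 9 panels, and replicate 3 of wild type on BW25113 (triangle) is the highest of its group in 7 of them.

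The sizes of the differences that chose the genes were as follows, on the scale of log2(normalized count + 1), which understates the change of low genes. Between genotypes on OP50, catp-2 (8.08), nhx-6 (7.90) and C02E7.10 (7.40) ranked 1, 2 and 3 among 15799 genes. C25F9.11 (5.48) ranked 6, T26H5.9 (5.29) ranked 7, Y41C4A.32 (5.27) ranked 8 and F33H12.7 (5.09) ranked 10. F44G3.10 (3.90) ranked 17 and C07G1.7 (2.96) ranked 41, with standard errors from 0.19 for Y41C4A.32 to 0.55 for nhx-6 over the 9. A gene was called where the adjusted p was under 0.05 and the log2 difference beyond 0.5 either way. Over all genes 5.9% were called higher and 5.6% lower in this comparison. Between rank 1 and rank 41 there were 32 genes that are not among the 9, and the first of them were F31C3.13 (5.88, rank 4), dod-21 (5.62, rank 5), Y37H2A.14 (5.27, rank 9), T19C9.8 (4.70, rank 11) and warf-1 (4.58, rank 12). F31C3.13 was not called (adjusted p = 0.0835, limma), and its SD exceeded its mean in each group.

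Between diets in the mutant the order was different. F33H12.7 had the largest fall of all 15799 genes (−4.70), followed by T26H5.9 (−4.17, rank 3), F44G3.10 (−3.94, rank 4), Y41C4A.32 (−3.84, rank 5) and C25F9.11 (−3.66, rank 8). C02E7.10 (−2.83, rank 18), C07G1.7 (−2.63, rank 28), catp-2 (−2.42, rank 33) and nhx-6 (−1.85, rank 74) were further down. dod-21, a gene named for its place downstream of DAF-16, took rank 2 at −4.40. Over all genes 7.22% were called lower and 2.15% higher on BW25113 in the mutant, and the median difference was 0.003.

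The 9 genes differed in how much of their excess in the mutant was left on BW25113. That share was taken as the level of each rnp-6(G281D) BW25113 sample above the wild-type OP50 mean, as a percentage of the same quantity for the rnp-6(G281D) OP50 mean, and it is a description. nhx-6 kept 28.8% ± 11.8 (SD, n = 4), catp-2 18.1% ± 3.85 and C02E7.10 13.3% ± 3.09. The lowest samples of these 3 genes (14.1%, 13.5% and 9.41%) were above the highest sample of any of the other 6 (8.22%). C25F9.11 kept 5.58% ± 2.27, Y41C4A.32 4.68% ± 2.67, T26H5.9 3.28% ± 2.38 and C07G1.7 2.67% ± 3.44. F33H12.7 kept 0.561% ± 1.88 and F44G3.10 0.144% ± 4.49. For T26H5.9, C07G1.7, F33H12.7 and F44G3.10 the mutant samples on BW25113 overlapped those of wild type on OP50, and for the other 5 genes they did not. Both of these groups took part in choosing the genes, and the share of all genes without such overlap was not taken. The count is therefore a description too.

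Levels of different genes are comparable only per transcript length, for which the FPKM table was used. In rnp-6(G281D) on OP50, Y41C4A.32 stood first at 47.2 ± 17.4 FPKM (SD, n = 4) and T26H5.9 second at 21.3 ± 3.57, and neither range overlapped the next gene's. F33H12.7 (13.8 ± 3.00), C02E7.10 (11.1 ± 3.26), nhx-6 (7.73 ± 1.57), C25F9.11 (4.65 ± 0.987), F44G3.10 (3.41 ± 0.539), catp-2 (3.38 ± 0.884) and C07G1.7 (1.64 ± 0.693) followed, and in this stretch the samples of each gene overlapped those of the next. In wild type on OP50, Y41C4A.32 was at 1.12 ± 0.117 FPKM and the other 8 were between 0.00772 and 0.546 on average.

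The comparison of genotypes on BW25113 asked whether the excess of these transcripts in the mutant was still there on the other diet. The wild-type BW25113 samples had no part in choosing the genes, but the rnp-6(G281D) BW25113 samples did, so the test is not fully independent of the choice. A gene chosen for low values in the mutant on BW25113 is more likely to come out lower here. Of the 9 genes, 4 were higher in the mutant: catp-2, nhx-6, C02E7.10 and Y41C4A.32, among 2.22% of all genes called higher. C07G1.7 was past the thresholds in the other direction, in which 3.47% of all genes were called. catp-2 was higher by 3.45 ± 0.78 on the log2 scale (SE, adjusted p = 0.0135, limma; two-sided exact permutation p = 0.0286, the smallest that 4 against 4 samples can give), from a mean normalized count of 21.0 ± 32.5 to 106 ± 22.3 (SD, n = 4). nhx-6 was higher by 2.69 ± 0.65 (adjusted p = 0.0181, exact p = 0.0571), C02E7.10 by 2.64 ± 0.73 (adjusted p = 0.0339, exact p = 0.0286) and Y41C4A.32 by 1.45 ± 0.36 (adjusted p = 0.0215, exact p = 0.0571). C07G1.7 differed by −1.502 ± 0.28, the direction that the choice itself favours, and it was in the test only through its level in the mutant on OP50, so its value is given as a description without a p. T26H5.9 differed by 1.06 ± 0.35 (adjusted p = 0.0641) and F33H12.7 by 0.73 ± 0.70 (0.526), and neither passed the test. C25F9.11 differed by 1.60 ± 0.61 and F44G3.10 by 0.92 ± 0.67. Both were likewise in the test only through the mutant on OP50 and are descriptions without a p. All 4 had higher means in the mutant. F33H12.7 depended on single wild-type samples, at 1.48 without replicate 3 (adjusted p = 0.0844) and 0.19 without replicate 2 (0.884).

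Wild-type BW25113 replicate 3 weighed on this comparison. Without it catp-2 was higher by 4.41 (adjusted p = 7.74e-05), nhx-6 by 3.49 (7.58e-05), C02E7.10 by 3.36 (0.00383) and Y41C4A.32 by 1.85 (0.000912). C25F9.11 came to 2.12 without that sample and stayed at 1.60 with the replicate number as a block. C25F9.11 was in the test only through its level in the mutant on OP50. It had at most 11.3 normalized counts in any sample compared here, so these values are descriptions and not counted as calls. catp-2 stayed past the thresholds without any 1 library. nhx-6 lost its call without wild-type BW25113 replicate 1, 2 or 4 or mutant BW25113 replicate 4 (adjusted p from 0.0515 to 0.0559, differences from 2.31 to 2.57). Y41C4A.32 lost it without wild-type replicate 1, 2 or 4 or mutant replicate 1 or 4 (adjusted p from 0.055 to 0.0631), and C02E7.10 without wild-type replicate 1 or 2 or any 1 of the mutant samples (0.0526 to 0.0851). T26H5.9 gained one without mutant replicate 1 (1.39, adjusted p = 0.00933), in one fit of all 16 samples (1.06, 0.0327) and in the FPKM table (1.26, 0.0316). With no filter on low values, over 28485 genes, all 4 higher calls were lost (adjusted p from 0.101 to 0.158), and C02E7.10 also lost its call with a pseudocount of 0.1 (0.0839).

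The comparison of diets in wild type asked whether BW25113 moved these transcripts in animals without the mutation. It shares the wild-type OP50 samples with the choice of the genes, and a gene chosen for low values there is more likely to come out higher on BW25113. nhx-6 and C07G1.7 were past the thresholds with higher values on BW25113, where 0.741% of all genes were called higher and 2.59% lower. nhx-6 was higher by 3.35 ± 0.81 on the log2 scale (adjusted p = 0.0324, exact permutation p = 0.0286), from a mean of 4.08 ± 3.53 to 68.5 ± 92.9 normalized counts (SD, n = 4). The choice of the genes favours this direction, and the p-values take no account of that. The difference was the largest upwards of the 15799 genes, and without wild-type BW25113 replicate 3 it was 2.56 (adjusted p = 0.0462). C07G1.7 differed by 1.82 ± 0.35, from 4.75 ± 2.08 to 18.3 ± 3.88, a description without a p since it too was in the test only through the mutant on OP50. catp-2, C02E7.10, F33H12.7, T26H5.9 and Y41C4A.32 did not pass the test. catp-2 differed by 2.21 ± 0.88 (adjusted p = 0.174) and C02E7.10 by 1.94 ± 0.81 (0.198), values that were 1.26 and 1.21 without replicate 3. F33H12.7 had −0.34 ± 0.77 (0.854), T26H5.9 0.06 ± 0.35 (0.946) and Y41C4A.32 −0.02 ± 0.32 (0.984). F44G3.10 (−0.97 ± 0.61) and C25F9.11 (0.23 ± 0.68), in the test only through the mutant on OP50, are descriptions without a p. The call of nhx-6 was lost without wild-type OP50 replicate 1, 3 or 4 or wild-type BW25113 replicate 2 (adjusted p from 0.0526 to 0.0824, differences from 2.70 to 3.57). C02E7.10 crossed the thresholds without wild-type BW25113 replicate 4 (2.72). Its means in wild type were 0.52 on OP50 and 7.78 on BW25113, and those of T26H5.9 were 9.51 and 9.26. With means under 10 in each group, both genes were compared here only through their mutant levels, and the crossing of C02E7.10 is not counted as a call. nhx-6 was also not called with a pseudocount of 0.1 (adjusted p = 0.0672) or in the FPKM table (1.69, adjusted p = 0.144), or with no filter on low values (0.186).

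**Figure D2:**
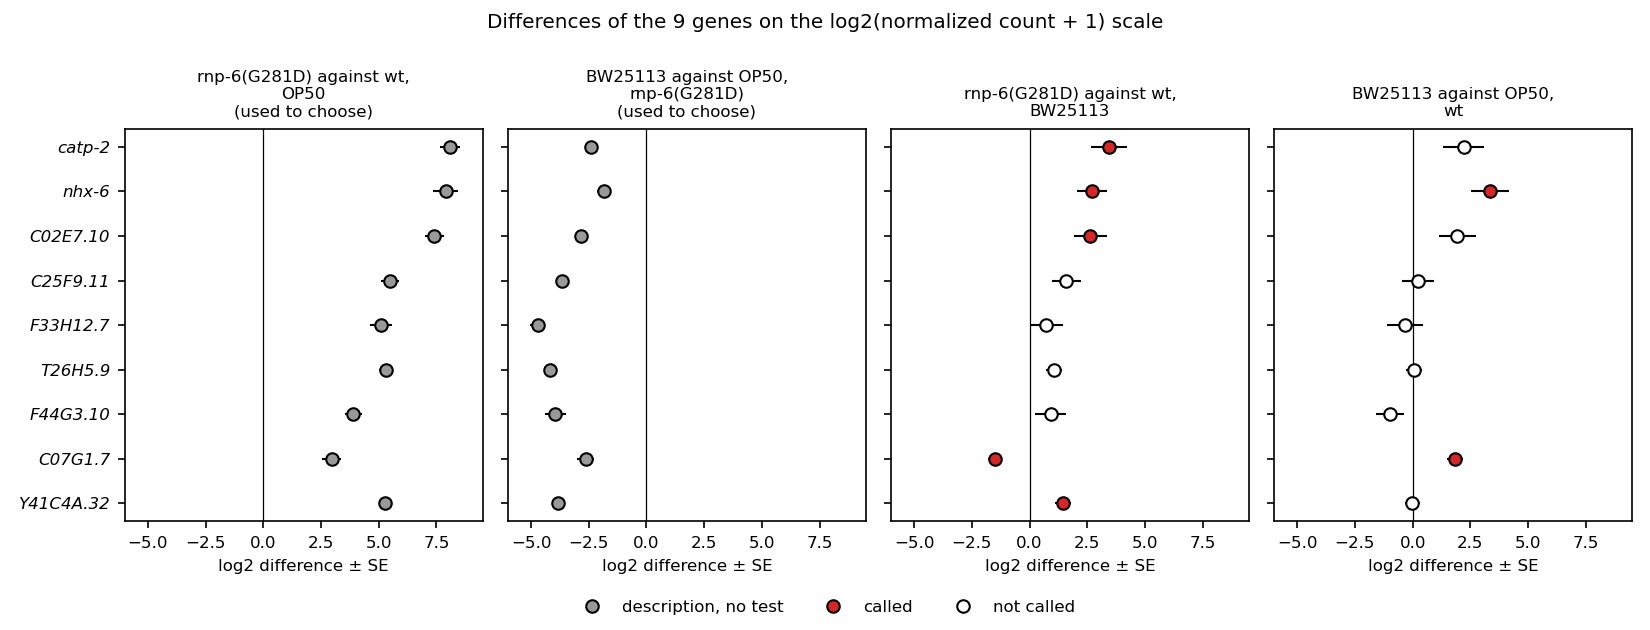
Log2 difference with its standard error for each of the 9 genes in the 4 comparisons, with grey points for the comparisons that chose the genes, red for values past the thresholds and white for the others. catp-2, nhx-6, C02E7.10 and Y41C4A.32 are past the thresholds with higher values in rnp-6(G281D) on BW25113 and C07G1.7 with lower values. In wild type nhx-6 and C07G1.7 are past them with higher values on BW25113. All values of C07G1.7, C25F9.11 and F44G3.10 are descriptions.

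The samples of one group did not vary in the same way for all 9 genes. In rnp-6(G281D) on OP50, replicate 4 had the lowest catp-2, nhx-6 and C02E7.10 (357, 659 and 132) and at the same time the highest Y41C4A.32, F33H12.7, F44G3.10 and C07G1.7 (5005, 613, 96.0 and 72.9). The deviations of catp-2 and nhx-6 from their group means had r = 0.88 over the 16 samples, and 0.73 without wild-type BW25113 replicate 3. For catp-2 and C02E7.10, the neighbours, r was 0.73 and 0.41. For catp-2 and Y41C4A.32 r was 0.56 with that sample and −0.08 without it, so the relation rested on 1 sample. T26H5.9 varied against Y41C4A.32, with r = −0.48 and −0.49. These correlations describe 36 pairs of genes in 16 samples that share their libraries, and no test was made of them.

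**Figure D3:**
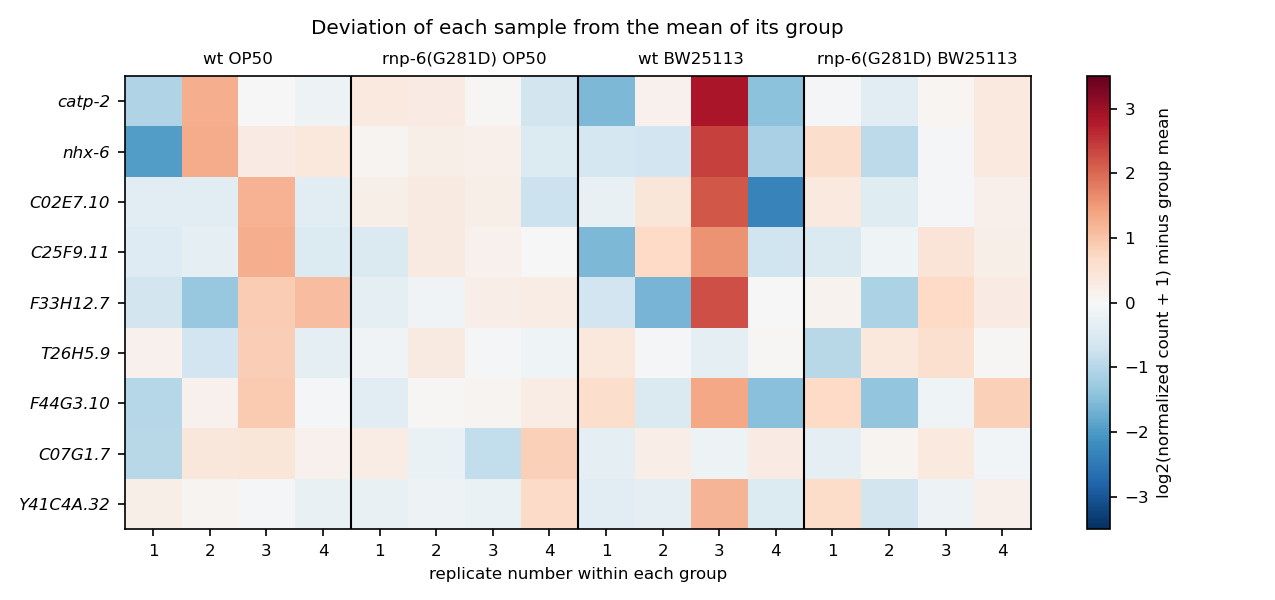
Deviation of each sample from its group mean on the log2(normalized count + 1) scale, for the 9 genes and 16 samples in 4 groups. Replicate 3 of wild type on BW25113 is above its group mean for 7 genes, and replicate 4 of rnp-6(G281D) on OP50 is below it for catp-2, nhx-6 and C02E7.10 and above it for Y41C4A.32.

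Among themselves, the levels of catp-2, nhx-6 and C02E7.10 had r between 0.947 and 0.976 over the 16 samples. Of genes outside the 9, pals-6 was the most like catp-2 (r = 0.98) and nhx-6 (r = 0.96) and the second most like C02E7.10 (r = 0.94). pals-6 belongs to a family of which several members respond to intracellular pathogens, and its mean normalized counts on OP50 were 6.76 for wild type and 98.1 for the mutant, and 13.5 and 33.9 on BW25113. Of genes outside the 9, Y41C4A.32 was most like warf-1 (r = 0.99), Y37H2A.14 (r = 0.99) and T19C9.8 (r = 0.99). warf-1, an ADP-ribosylation-factor-like gene, had 47.4 and 1168 on OP50 and 44.3 and 111 on BW25113. F33H12.7 was most like lgmn-1 (r = 0.98), a gene for the lysosomal protease legumain, at 1302 and 4477 on OP50 and 1231 and 1516 on BW25113. T26H5.9 was most like the F-box gene fbxa-60 (r = 0.98), F44G3.10 most like Y34F4.5 (r = 0.97) and C25F9.11 most like ZK1055.6 (r = 0.97). C07G1.7 had the weakest match, with the tankyrase-related gene tank-1 (r = 0.88). The 16 samples fall into 4 groups, so these r values mainly follow the group means, and they are given without a test.

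Few of the genes around the 9 were abundant enough to be compared. Among the 3 nearest annotated genes on each side there were 48 different genes, 46 of them in the table and 15 abundant enough to be tested. Between genotypes on OP50, 3 of the 15 were higher (C25F9.14, M04C3.1 and T26H5.14) and 2 lower (fbxb-17 and svh-1), where 5.9% and 5.6% of all genes were called. With 15 genes these counts are small, and some share a neighbourhood. T26H5.14, in the neighbourhood of T26H5.9, rose by 2.67 on OP50, from 6.3 to 46.6, and by 1.07 on BW25113. It passed the filter only through the mutant on OP50, with means on BW25113 of 5.5 in wild type and 12.4 in the mutant. Its values are therefore a description, although the counts of neighbours given here include it. svh-1, which overlaps C07G1.7 on the other strand, was lower in the mutant on both diets (−0.54 and −0.94), so on OP50 the pair moved in opposite directions. None of the neighbours of catp-2 and C02E7.10 reached the level needed for a test, and neither did those of F33H12.7. Y41C4A.11, the earlier annotation at the locus of Y41C4A.32, had 24.3 and 23.5 normalized counts on OP50 (−0.07, not called). Among neighbours too low to be tested, T26H5.4 went from 0.27 to 17.0 and sri-36 beside F33H12.7 from 0.516 to 10.8 on OP50, values singled out after they were seen. Between diets, 1 of the 15 was higher and 4 lower in the mutant on BW25113 (2.15% and 7.22% of all genes), and none higher and 2 lower in wild type (0.741% and 2.59%).

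**Figure D4:**
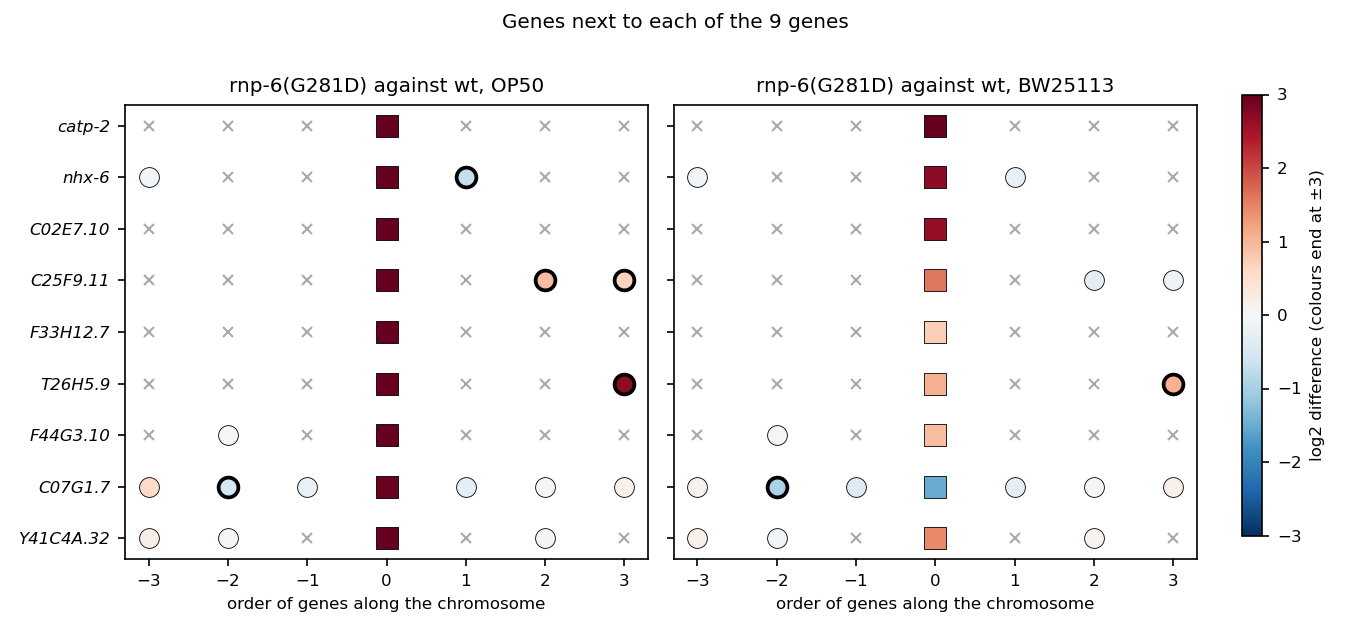
Log2 difference between rnp-6(G281D) and wild type on OP50 (left) and BW25113 (right) for each of the 9 genes (squares) and the 3 annotated genes on each side of it (circles, heavy outline where called, crosses where the level was too low for a test); values beyond 3 take the end colour. Outside the squares, the strongest colour on OP50 belongs to T26H5.14, at 2.67.

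The other genes of the same families were few, and their counts of calls are read against the 11.5% of all genes called in either direction between genotypes on OP50 and the 5.68% on BW25113. Of 16 other P-type ATPase and sodium pump subunit genes, none was called by limma between genotypes on either diet (median difference 0.01 on both), and 6 on OP50 and 5 on BW25113 had an unadjusted p under 0.05. Over the whole table of 15799 genes, 3110 higher and 3141 lower had such a p on OP50, and 2280 and 2376 on BW25113. nkb-2, a beta subunit of the sodium pump, and catp-4 were lower on BW25113 in both genotypes, by 1.13 and 0.64 in the mutant and by 0.87 and 0.52 in wild type. Of 8 other Na+/H+ exchanger genes, nhx-1 was lower in the mutant on OP50 (−1.03, adjusted p = 0.000737, limma) and on BW25113 (−0.86, adjusted p = 0.00486). Regardless of size, 4 of the 8 had an adjusted p under 0.05 with higher values in the mutant on OP50 and 2 with lower values. The largest of the higher ones was nhx-2 (0.42). On BW25113 none was higher and 2 were lower at that adjusted p. nhx-2, an intestinal exchanger, was lower on BW25113 in the mutant (−0.65). Of the 7 COPI coat genes none was called by limma in any of the 4 comparisons, with 1 at an unadjusted p under 0.05 between genotypes on OP50 and 2 between diets in wild type. Between diets in wild type 1507 higher and 1811 lower of all 15799 genes had such a p. copb-2, the worm gene that carries the COPB2 name, had 4434 normalized counts in wild type and 4600 in the mutant on OP50 (0.05).

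Y41C4A.32 has been used as a reporter of immune and endoplasmic reticulum stress responses, so both sets were examined. Of 17 genes of the endoplasmic reticulum unfolded protein response, none passed the size threshold between genotypes, but on OP50 12 of them had an adjusted p under 0.05 (limma), all with higher values in the mutant, against 2260 of 15799 genes over the whole table. The chaperone genes hsp-4 (0.41, adjusted p = 8.49e-05) and enpl-1 (0.36, adjusted p = 4.47e-06) had the largest of these differences. The 17 genes summed to between 257300 and 262300 normalized counts in the mutant and 223300 and 231300 in wild type on OP50, with no overlap. On BW25113 the sums overlapped, from 225700 to 240800 and from 228500 to 248700, and 1 gene had an adjusted p under 0.05, with a lower value in the mutant. Between diets in the mutant 7 had an adjusted p under 0.05 with lower values on BW25113 and 1 with a higher value, and only the transcription factor gene xbp-1 passed the size threshold (−0.52). Of 7 genes of the integrated stress response, 4 had an adjusted p under 0.05 (limma) with lower values in the mutant on OP50 and 1 with a higher value. Over the whole table these numbers were 2361 and 2260 of 15799 genes. Only the asparagine synthetase gene asns-2 passed the size threshold (−0.84). On BW25113 2 were lower in the mutant at that adjusted p and 1 was higher, against 1268 and 1038 of 15799 genes. Of 20 innate immune genes tested, 4 were higher in the mutant on OP50 (irg-1 by 1.22, irg-2 by 1.48, sysm-1 by 0.62 and the lysozyme gene lys-2 by 1.10) and 3 lower (irg-3, irg-4 and irg-5), so 35% were called against 11.5% of all genes. On BW25113 in the mutant 9 of the 20 were lower, with irg-2 at −2.25, irg-1 at −1.38 and sysm-1 at −1.29, and none was higher, against 7.22% and 2.15% of all genes. irg-1 passed the filter on low values only through the mutant on OP50. Its means were 9.08 in wild type on OP50, 6.84 in wild type on BW25113 and 7.64 in the mutant on BW25113. It is included in the 4, the 35% and the 9, but its values are descriptions. Between genotypes on BW25113, irg-4 and sysm-1 were lower and none higher, and between diets in wild type lys-2 was higher and 3 were lower. The medians of the 20 were 0.21, −0.55, −0.08 and −0.10 in the order genotype on OP50, diet in the mutant, genotype on BW25113 and diet in wild type, against medians within 0.003 of 0 over all genes. acdh-1 and hphd-1, which rise when vitamin B12 is low, were not called by limma in any of the 4 comparisons, while 2, 1, 2 and 2 of them had an unadjusted p under 0.05 in the same order. Of all 15799 genes, 3110 higher and 3141 lower, 2393 and 2824, 2280 and 2376, and 1507 and 1811 had such a p in that order. Between diets, with values above 0 for higher levels on BW25113, acdh-1 differed by 0.08 in the mutant (adjusted p = 0.122, limma) and 0.07 in wild type (0.155). hphd-1 differed by 0.12 in the mutant (0.166) and 0.20 in wild type (adjusted p = 0.00269, limma). Between genotypes acdh-1 was higher in the mutant by 0.20 on OP50 (adjusted p = 0.000115) and 0.21 on BW25113 (0.00206). hphd-1 differed by −0.12 on OP50 (0.0975) and −0.20 on BW25113 (0.00497).

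Markers of 5 intestinal genes, summed, ran from 33670 to 36160 normalized counts in wild type fed OP50, from 37540 to 40520 in the mutant fed OP50, from 32340 to 35480 in wild type on BW25113 and from 30890 to 34860 in the mutant on BW25113, with none of the 5 called in any comparison, although 4 of the 5 had an adjusted p under 0.05 (limma) with higher values in the mutant on OP50 and 3 with lower values in the mutant on BW25113. Among the other marker lists, 1 of 3 germline genes (glh-1, −0.58) and 1 of 3 embryonic genes (end-1, −0.91) were lower in the mutant on OP50. Of 2 hypodermal genes tested, 1 (dpy-7, 1.52) was higher there. Over all genes 5.6% were called lower and 5.9% higher. The other genes of these lists were not called: pgl-1 (−0.17), glp-1 (−0.04), pie-1 (0.06), skn-1 (0.12) and col-19 (0.02). Muscle, pharyngeal, neuronal and oocyte markers gave no call by limma in any comparison, and no marker was listed at 0 in every sample. dpy-7 was also higher in the mutant on BW25113 and on BW25113 within the mutant, where end-1 was higher as well (2.22% and 2.15% of all genes were called higher). Of 3 sperm genes, 2 were lower on BW25113 in the mutant and 1 in wild type, against 7.22% and 2.59% of all genes. The part of these shifts in the values of the 9 genes was not tested.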

How the data were processed

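RNA of whole day 1 adults was made into stranded libraries depleted of ribosomal RNA and sequenced by the authors. The submitters' processing notes name kallisto 0.46.1, DESeq2 1.24 and Cufflinks 2.2.1, and the build WBcel235. The authors deposited 2 tables. In the first, the signal deposited by the authors is an estimated count per gene after division by the sample's median-of-ratios size factor, here called a normalized count. The second holds FPKM as deposited by the authors, and the tool that made it is not given in the sources used here. Neither holds raw counts and whole reads could not be recovered, so the depth is unknown and no count test was run.

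Values were analysed as log2(normalized count + 1), keeping the 15799 genes whose mean was 10 or more. For each comparison, limma 3.58.1 (lmFit, eBayes with a trend) in R 4.3.3 was fitted to the 8 samples involved, and p-values were adjusted by Benjamini-Hochberg over all 15799 genes. For the comparisons that did not choose the genes, a two-sided exact permutation test over 70 divisions of 8 samples was added (18 tests, not adjusted). The procedure was tested on simulated data. Figures were drawn with matplotlib 3.10.9. The 9 genes, the gene lists and the tests were chosen with earlier results of these data known. Other genes named are the 3 most alike to each of the 9, neighbours and list genes that were called, and genes ranking among the 9. Sequences and promoter motifs were not analysed here.

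Replicate numbers are shared by the groups, with no statement of what they mark. Deviations from the group mean were correlated between samples of the same number across the 10252 genes whose mean was 100 or more. The r was 0.197 to 0.299 for genotypes on OP50, 0.104 to 0.47 for genotypes on BW25113 and 0.212 to 0.564 for diets in wild type, so same-numbered samples varied together there. The main fits and the permutation tests did not use this pairing, and the replicate block among the alternatives did. For diets in the mutant r ran from −0.064 to 0.273, which does not show pairing. Alternatives were pseudocounts of 0.1 and 5, no filter or a mean of 100, quantile normalization, scaling of samples to one total, the FPKM table (pseudocount 0.1), one fit of all 16 samples, a replicate block, and leaving out each sample.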

Additional observations from a re-analysis of the deposited data

Results flagged for a closer look

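Within groups of 4, a sample stood apart from the rest on the log2 scale in 7 of 36 sets of gene and group, where chance gives about 1 in 20. Of these 7, 2 were in wild-type BW25113 replicate 3, the highest of its group for nhx-6 (208 normalized counts) and Y41C4A.32 (180.3). Replicate 4 of rnp-6(G281D) on OP50 was the lowest for nhx-6 (659) and C02E7.10 (132) and the highest for Y41C4A.32 (5005). Replicate 3 of wild type on OP50 was the highest for C02E7.10 (2.08) and C25F9.11 (5.18), at levels near the floor of the table.

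For nhx-6 and C07G1.7 the diets moved the genotypes in opposite directions in every sample. In wild type nhx-6 was higher on BW25113 by 3.35 and C07G1.7 by 1.82 on the log2 scale, while in rnp-6(G281D) both were lower, by −1.85 and −2.63. The mutant values took part in choosing the genes, and the difference between the genotypes was not tested.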

How the results depend on the processing

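A filter at a mean of 100 left 5 of the 9 genes in each comparison, so the 9 beyond the thresholds in the comparisons that chose them became 5 and 5. That filter removed C02E7.10. It kept the genotype calls of catp-2, nhx-6 and Y41C4A.32 on BW25113 and the diet call of nhx-6 in wild type. One fit of all 16 samples left 8 of 9 between diets in the mutant. The next counts are of differences past the thresholds. They include C07G1.7 and C25F9.11, and C02E7.10 between diets in wild type, where these crossed, which are descriptions and not calls. With no filter 1 genotype difference on BW25113 and 0 diet differences in wild type were left. Pseudocount 0.1 and the FPKM table each left 1 diet difference. In these settings the 1 left was C07G1.7, so no call among the other genes remained. Leaving out 1 sample gave 2 to 6 genotype differences on BW25113 and 1 to 3 diet differences in wild type. With the replicate block there were 6 and 2, and of the 9 only C25F9.11 crossed a threshold with it. The number of calls over all genes with that block was 1108 against 898 for genotypes on BW25113 and 710 against 526 for diets in wild type. Sign changes occurred only for diet differences in wild type that were not called: C25F9.11 had −0.21 at pseudocount 0.1, Y41C4A.32 had 0.035 under quantile normalization and 0 in the FPKM table, and T26H5.9 had −0.18 in the FPKM table. Leaving out 1 sample, these ran from −0.30 to 0.75 for C25F9.11, −1.10 to 0.20 for F33H12.7, −0.16 to 0.35 for T26H5.9 and −0.41 to 0.14 for Y41C4A.32. The OP50 difference of C02E7.10 was 10.01 at pseudocount 0.1 and 5.39 at 5. The calls lost without 1 sample also had fewer samples in the fit. Counting depth is unknown, which limits what can be said of values near 0.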
